A study of Homo sapiens with 11 samples.

Results

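The genes described here are the NRF2 antioxidant genes in RWPE-1 cells moved from normoxia to hypoxia: the 2 regulators NFE2L2 and KEAP1 and 7 target genes, NQO1, GCLC, GCLM, TXNRD1, SRXN1, SLC7A11 and HMOX1. They were chosen by symbol and make up 9 of the 60676 genes in the count table. All 9 were among the 19981 genes that passed the filter on low counts. RWPE-1 is a single line of immortalized, non-tumorigenic human prostate epithelial cells, so every library came from the same genetic background. RNA-seq was performed on untreated cells in normoxia (0 h, 3 libraries) and on cells kept at 1% oxygen for 6 h (3 libraries), 12 h (3 libraries) or 24 h (2 libraries). The medium of the hypoxic cells was also supplemented with 10 mM HEPES, so oxygen and buffer cannot be told apart in any comparison with 0 h. The labels do not say whether replicates were separate cultures, and the p-values then measure the spread between these libraries, which may be technical. In bulk RNA, fewer cells expressing a gene and less of its RNA per cell cannot be told apart.

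NRF2, encoded by NFE2L2, is a transcription factor that is mainly controlled through protein stability. KEAP1 is the adaptor that brings NRF2 to a CUL3 ubiquitin ligase for degradation, and oxidants or electrophiles that modify KEAP1 cysteines let NRF2 accumulate. With a small MAF partner, NRF2 binds antioxidant response elements (AREs) in genes for quinone reduction, glutathione synthesis, thioredoxin recycling, cystine uptake and haem breakdown, while BACH1 binds the same elements as a repressor. Transcript levels of NFE2L2 and KEAP1 therefore do not report NRF2 protein or its activity, which were not measured here.

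The libraries held between 27496009 and 49488345 counts. The 2 libraries at 24 h were farther apart than any other replicates, with a distance of 139.9 over the log2 CPM of tested genes against 40.3 to 87.1 within the other groups, and 24 h replicate 2 had the lowest TMM scaling factor (0.539, with 0.851 to 1.32 elsewhere). The basal markers KRT5, KRT14, KRT15 and TP63 were all detected in every group. Their summed level ran from 7526 to 10408 CPM at 0 h, 10506 to 15835 CPM at 6 h, 16738 to 19397 CPM at 12 h and 14947 to 20216 CPM at 24 h. KRT5 and KRT14 made up most of that sum, while KRT15 and TP63 were called lower at all 3 times. Of the luminal markers KLK3 was at 0 in every library. Of the fibroblast markers 1 of 4, COL1A1, reached a mean of 1 CPM in each group, and their sum ran from 47.2 to 60.6 CPM at 0 h and from 27.9 to 30.4 CPM at 24 h. No endothelial or leukocyte marker reached a mean of 1 CPM. The part of these markers in the results was not tested. Levels are given as CPM, the counts scaled to a common library size with TMM factors, and differences as log2 fold changes with standard errors (SE) from edgeR. A gene was called when its Benjamini-Hochberg adjusted p over all tested genes in edgeR's quasi-likelihood test was under 0.05.

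The upstream sequences of 7 members were found in the RefSeq promoter table (GRCh38.p14), and the 250 bases before each listed start were searched on both strands for the ARE core letters TGACNNNGC. Of all 35116 windows of this length, 10.9% held the letters. They occurred in windows of TXNRD1, GCLM and KEAP1, and not in the windows of NFE2L2, NQO1, GCLC or SRXN1. The sequences below are shown because TXNRD1, GCLM and GCLC followed 3 different courses in hypoxia, and because GCLM and GCLC encode the 2 subunits of 1 enzyme. They are the window before the first TXNRD1 start (chr12:104215529-104215778, plus strand, outside any annotated gene), the GCLM window (chr1:93909431-93909680, minus strand, with 26 bases in an annotated GCLM exon) and the GCLC window (chr6:53545102-53545351, minus strand, intronic in the GENCODE annotation). They are written 5′ to 3′, and capitals mark the ARE core letters on either strand.
TXNRD1: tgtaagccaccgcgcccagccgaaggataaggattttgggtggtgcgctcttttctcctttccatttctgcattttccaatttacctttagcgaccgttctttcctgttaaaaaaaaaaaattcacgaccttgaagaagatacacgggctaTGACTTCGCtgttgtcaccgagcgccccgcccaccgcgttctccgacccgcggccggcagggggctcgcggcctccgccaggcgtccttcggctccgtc
GCLM: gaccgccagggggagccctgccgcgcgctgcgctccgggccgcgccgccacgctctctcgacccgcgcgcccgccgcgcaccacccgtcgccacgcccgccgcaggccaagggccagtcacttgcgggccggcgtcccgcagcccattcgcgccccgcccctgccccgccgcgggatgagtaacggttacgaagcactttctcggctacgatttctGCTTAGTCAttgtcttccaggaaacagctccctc
GCLC: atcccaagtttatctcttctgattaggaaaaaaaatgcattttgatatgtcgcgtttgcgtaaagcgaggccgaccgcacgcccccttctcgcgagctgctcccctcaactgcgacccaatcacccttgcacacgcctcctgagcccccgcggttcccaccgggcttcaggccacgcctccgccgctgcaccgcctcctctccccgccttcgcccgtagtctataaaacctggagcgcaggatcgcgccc
The match lay 99 to 91 bases before the TXNRD1 start as TGACTTCGC on the gene's strand, and 34 to 26 bases before the GCLM start as TGACTAAGC on the opposite strand. The second TXNRD1 window held TGACAAAGC on the opposite strand, 102 to 94 bases before that start. The second KEAP1 window held TGACACGGC, 54 to 46 bases before the start, and TGACTAAGC on the opposite strand, 31 to 23 bases before it. The hypoxia response element letters ACGTG were in no member window (18.5% of all windows). GCGTG was in windows of NFE2L2, KEAP1, GCLC, GCLM and TXNRD1 (32.2% of all windows). These matches describe the letters in the windows alone, and gene counts do not separate the TXNRD1 starts.

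Against normoxia, 6 of the 9 members were called at 6 h, where 52.8% of all tested genes were called. Of the members 5 were higher (25.1% of all genes) and 1 was lower (27.7%). At 12 h 5 members were called, with 51.2% of all genes called, 3 higher (24.2%) and 2 lower (27.1%). At 24 h 6 members were called, with 61.2% of all genes called, 4 higher (29.9%) and 2 lower (31.3%). The libraries of the groups did not overlap for 6 members at 6 h, 5 at 12 h and 7 at 24 h, beside 69.6%, 72.3% and 73.0% of all genes. With 9 genes, the shares of members called were near those of all genes, and members moved in both directions at each time. NQO1, TXNRD1 and HMOX1 were higher at all 3 times (14.8% of tested genes were) and SLC7A11 was lower at all 3 times (17.9% were). The median log2 fold change of the members was 0.439 at 6 h, 0.079 at 12 h and 0.314 at 24 h, beside -0.002, -0.033 and -0.065 over all tested genes.

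**Figure D1:**
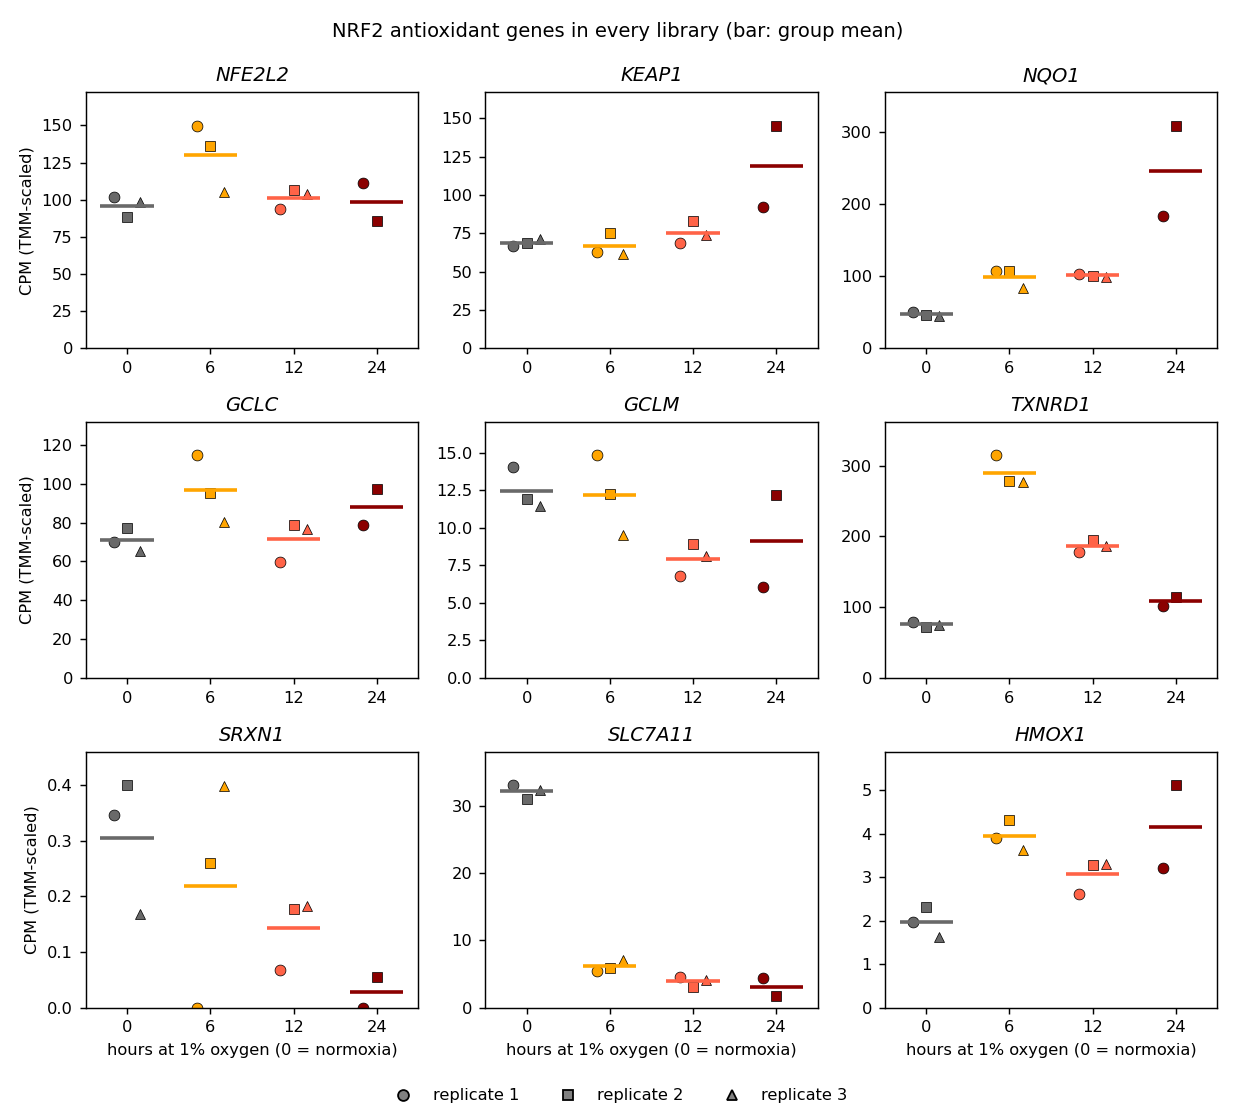
CPM of the 9 members (y axis, from 0, with its own scale in each panel) in each library by hours at 1% oxygen (x axis). Points are libraries with a marker for each replicate number, and bars are group means. TXNRD1 peaked at 6 h (289.5 CPM), NQO1 was highest at 24 h (245.9 CPM), and SLC7A11 was lower in every hypoxic library (1.74 to 7.05 CPM) than in normoxia (31.0 to 33.1 CPM).

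NFE2L2 (chr2:177218667-177392756, minus strand) stood at 102, 88.0 and 98.2 CPM in the normoxic libraries, and at 149.9, 136 and 105 CPM at 6 h. All 3 libraries at 6 h lay above the highest normoxic one, although replicate 3 did so by a small margin. NFE2L2 was higher by 0.44 on the log2 scale at 6 h (SE 0.16, edgeR adjusted p = 0.0327). This call was lost without any 1 of the normoxic libraries, 6 h replicate 1 or 2 or 12 h replicate 2 (log2 0.33 to 0.48), with library size alone (0.12), with no filter on low counts (0.40) and with at least 10 counts required in every library (0.35). At 12 h the libraries held 94.0, 107 and 104 CPM and at 24 h 111 and 85.6 CPM, both overlapping normoxia. The log2 differences were 0.08 (SE 0.16, edgeR adjusted p = 0.698) and 0.04 (SE 0.18, edgeR adjusted p = 0.870). In the annotation 24.8% of NFE2L2 exon bases are shared with genes on the other strand, and whether the counting used strand is not given in the sources used here.

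KEAP1 (chr19:10486125-10503558, minus strand) stood between 66.5 and 71.3 CPM in normoxia, between 61.5 and 75.5 CPM at 6 h and between 68.8 and 82.8 CPM at 12 h. These ranges overlapped, and neither difference was called (log2 -0.05, SE 0.17, edgeR adjusted p = 0.828 at 6 h; log2 0.13, SE 0.17, edgeR adjusted p = 0.541 at 12 h). At 24 h the libraries held 92.0 and 145 CPM. Both exceeded every earlier library, and KEAP1 was higher by 0.79 (SE 0.18, edgeR adjusted p = 0.00270), though with library size alone the sign turned (-0.20). Leaving out 24 h replicate 2, the log2 fold change was 0.40, and leaving out replicate 1 it was 1.02.

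NQO1 (chr16:69706996-69726668, minus strand) encodes the quinone reductase that is widely used as a readout of NRF2. Its normoxic libraries held 51.0, 46.0 and 44.3 CPM, and those at 6 h 107, 107 and 83.9 CPM. At 12 h the values were 104, 101 and 98.9 CPM, and at 24 h 183 and 309 CPM. Every hypoxic library exceeded every normoxic one, and both 24 h libraries exceeded the rest. The log2 fold changes against 0 h were 1.07 at 6 h (SE 0.18, edgeR adjusted p = 0.000351), 1.10 at 12 h (SE 0.18, edgeR adjusted p = 0.000364) and 2.38 at 24 h (SE 0.20, edgeR adjusted p = 2.14e-06). NQO1 remained called and higher against 0 h under all 20 alternatives at each time. The value at 24 h was 1.94 without replicate 2 and 2.66 without replicate 1.

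The 2 subunits of glutamate-cysteine ligase, the rate-limiting enzyme of glutathione synthesis, differed in their course. The catalytic subunit gene GCLC (chr6:53497341-53616970, minus strand) stood at 70.1, 77.5 and 65.4 CPM in normoxia and at 115, 95.2 and 80.4 CPM at 6 h. The 6 h libraries lay above the normoxic ones, and GCLC was higher by 0.45 (SE 0.17, edgeR adjusted p = 0.0372). That call was lost without any 1 of the normoxic libraries, 6 h replicate 1 or 2 or 12 h replicate 2 or 3 (log2 0.31 to 0.51), with library size alone (0.12), with no filter (0.40) and with at least 10 counts in every library (0.36). It was not called at 12 h (log2 0.01, SE 0.17, edgeR adjusted p = 0.948) or at 24 h (log2 0.31, SE 0.18, edgeR adjusted p = 0.156), where its libraries held 78.9 and 97.5 CPM. The modifier subunit gene GCLM (chr1:93885199-93909456, minus strand) held 14.0, 11.9 and 11.4 CPM in normoxia and 14.8, 12.3 and 9.55 CPM at 6 h, which overlapped (log2 -0.03, SE 0.24, edgeR adjusted p = 0.919). At 12 h it held 6.77, 8.89 and 8.16 CPM, all below the lowest normoxic library. GCLM was lower there (log2 -0.65, SE 0.24, edgeR adjusted p = 0.0388), a call lost without any 1 of the normoxic libraries, 6 h replicate 2 or 12 h replicate 1 or 3 (log2 -0.72 to -0.55). The 24 h libraries of GCLM split, at 6.08 and 12.2 CPM (log2 -0.46, SE 0.28, edgeR adjusted p = 0.166). Without 24 h replicate 2 the difference was -1.06 and past the threshold, as it was with library size alone (-1.47).

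TXNRD1 (chr12:104215779-104350307, plus strand), the cytosolic thioredoxin reductase, showed the largest rise of the members at 6 h. It held 79.4, 72.3 and 75.5 CPM in normoxia, 315, 278 and 276 CPM at 6 h, 177, 195 and 187 CPM at 12 h, and 101.5 and 115 CPM at 24 h. The 4 groups did not overlap, and the level was highest at 6 h and lower at each later time. The log2 fold changes against 0 h were 1.93 (SE 0.13, edgeR adjusted p = 5.96e-07), 1.30 (SE 0.13, edgeR adjusted p = 9.70e-06) and 0.51 (SE 0.14, edgeR adjusted p = 0.00628) at 6 h, 12 h and 24 h. With library size alone the 24 h value turned to -0.42, while those at 6 h and 12 h kept their sign. The 24 h call was also lost with sample quality weights in limma-voom (0.50, adjusted p = 0.0859) and in edgeR with no filter (0.40, adjusted p = 0.123).

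SRXN1 (chr20:646615-653200, minus strand), the sulfiredoxin that repairs over-oxidized peroxiredoxins, was at the edge of detection. It had 15, 15 and 7 counts in normoxia, 0, 8 and 21 counts at 6 h, 2, 6 and 8 counts at 12 h, and 0 and 1 counts at 24 h. The 6 h libraries spanned the normoxic range, and SRXN1 was not called at 6 h (edgeR adjusted p = 0.696) or 12 h (edgeR adjusted p = 0.252). At 24 h it passed the threshold in the lower direction (edgeR adjusted p = 0.0466). With 1 count at 24 h against 37 in normoxia, the ratio of the pooled levels was 0.0793, with an exact 95% interval from 0.00196 to 0.470 that covers counting error only. The 24 h call was lost under 11 of 19 alternatives, among them leaving out either 24 h library. A read-through gene shares 90.7% of the SRXN1 exon bases on the same strand and held 1 count in all. How the counting treated reads that fall in both is not stated in the sources used here, so the low SRXN1 counts are uncertain as a measure of the transcript.

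SLC7A11 (chr4:138164097-138242349, minus strand) encodes the cystine importer subunit xCT, and its course was opposite to that of NQO1. It held 33.1, 31.0 and 32.4 CPM in normoxia, 5.43, 5.90 and 7.05 CPM at 6 h, 4.60, 3.11 and 4.16 CPM at 12 h, and 4.41 and 1.74 CPM at 24 h. All 8 hypoxic libraries were far below the lowest normoxic one. The log2 fold changes were -2.39 (SE 0.25, edgeR adjusted p = 1.26e-05), -3.02 (SE 0.26, edgeR adjusted p = 5.08e-06) and -3.36 (SE 0.32, edgeR adjusted p = 4.93e-06), which correspond to 0.191, 0.123 and 0.0972 of the normoxic level. SLC7A11 was called lower against 0 h at each time under all 20 alternatives.

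HMOX1 (chr22:35380361-35394214, plus strand), the inducible haem oxygenase, was expressed at a low level throughout, with 68 to 191 counts per library. It held 1.96, 2.32 and 1.64 CPM in normoxia, 3.90, 4.31 and 3.62 CPM at 6 h, 2.60, 3.29 and 3.31 CPM at 12 h, and 3.21 and 5.12 CPM at 24 h. Every hypoxic library exceeded the normoxic ones. The log2 fold changes were 1.00 at 6 h (SE 0.23, edgeR adjusted p = 0.00277), 0.64 at 12 h (SE 0.23, edgeR adjusted p = 0.0321) and 1.07 at 24 h (SE 0.25, edgeR adjusted p = 0.00295). The 12 h call was lost without 0 h replicate 1 or 3 or 12 h replicate 2 or 3 (log2 0.51 to 0.63), with library size alone (0.17), with no filter (0.62) and with at least 10 counts in every library (0.54). The 24 h call was lost with library size alone (0.09) and with sample quality weights in limma-voom (1.10, adjusted p = 0.0837).

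**Figure D2:**
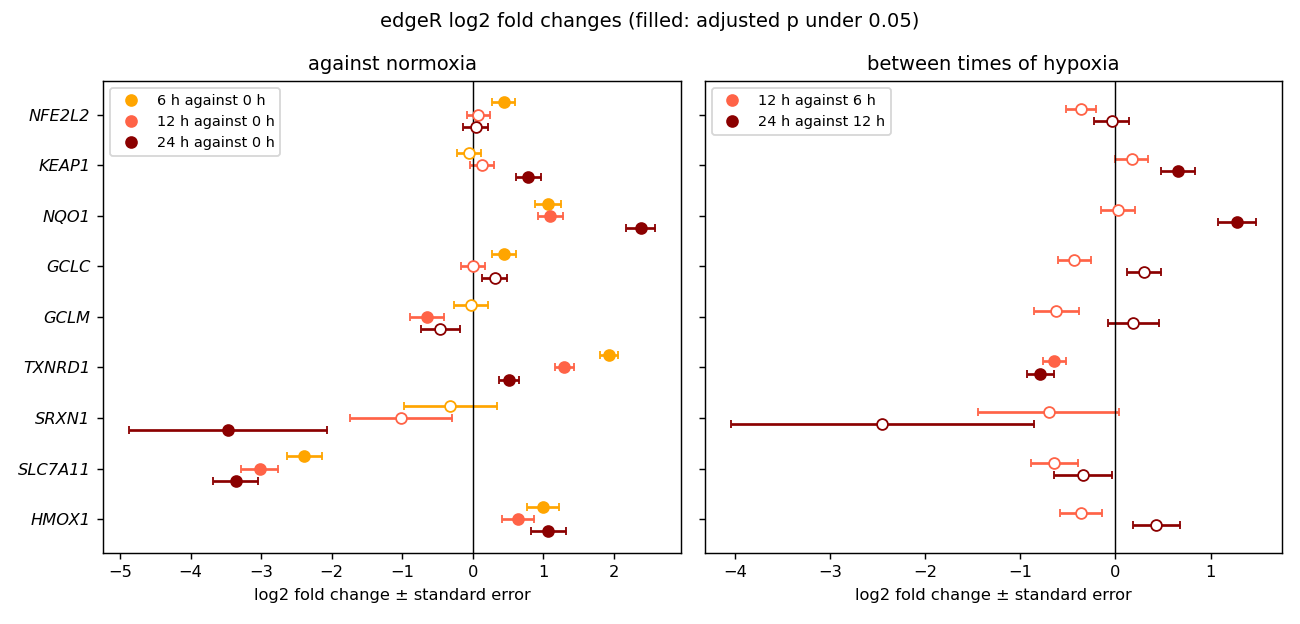
Log2 fold changes of the members (x axis, bars are standard errors) against normoxia (left) and between consecutive times of hypoxia (right), filled where the edgeR adjusted p was under 0.05. TXNRD1 fell from 1.93 at 6 h to 0.51 at 24 h while NQO1 went from 1.07 to 2.38, and the SRXN1 value at 24 h rests on 1 count.

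Between times of hypoxia, 1 of the 9 members was called from 6 h to 12 h, where 4.95% of all genes were called. Higher calls made up 1.88% of all genes and lower calls 3.07%. The member was TXNRD1, with a log2 fold change of -0.64 (SE 0.12, edgeR adjusted p = 0.0184). The call was lost without 6 h replicate 1 or 2 or without 12 h replicate 2 or 3. GCLC, GCLM, SLC7A11 and HMOX1 also had no overlap between 6 h and 12 h, each lower at 12 h, but did not pass the threshold (log2 -0.43, -0.62, -0.64 and -0.36). GCLC, GCLM and SLC7A11 did pass it with sample quality weights in limma-voom and without 24 h replicate 1, and GCLM and SLC7A11 also without 24 h replicate 2. Groups without overlap occurred for 31.6% of tested genes. NQO1 differed by 0.03 between those times (SE 0.18, edgeR adjusted p = 0.949).

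From 12 h to 24 h, 3 members were called, where 28.4% of all genes were, 2 higher (15.1% of all genes) and 1 lower (13.3%). The groups did not overlap for 5 members and for 49.2% of all genes. NQO1 was higher by 1.28 (SE 0.20, edgeR adjusted p = 0.00172) and KEAP1 by 0.66 (SE 0.18, edgeR adjusted p = 0.0200), while TXNRD1 changed by -0.79 (SE 0.14, edgeR adjusted p = 0.00306). NQO1 and TXNRD1, both ARE-driven genes by textbook knowledge, thus moved in opposite directions over this interval. In a fit of these 2 groups alone none of the 3 was called, with the direction of each unchanged. The KEAP1 call was also lost with library size alone (0.13), with sample quality weights in limma-voom (0.60) and without 12 h replicate 1 (0.60), 12 h replicate 3 (0.64) or 24 h replicate 2 (0.28). SLC7A11 (log2 -0.34, SE 0.30, edgeR adjusted p = 0.425) and NFE2L2 (log2 -0.04, SE 0.18, edgeR adjusted p = 0.878) were not called. The SLC7A11 value rested on which 24 h library was kept, at -1.21 and called lower without replicate 1 and 0.14 without replicate 2. HMOX1 was called higher over this interval without 24 h replicate 1 (0.71) and stood at 0.05 without replicate 2.

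Per kilobase of the canonical transcript, the order of the members changed with time. In normoxia NFE2L2 had the highest level (39.3 CPM per kilobase), followed by KEAP1 (26.8). TXNRD1 (19.6), GCLC (18.7) and NQO1 (18.7) came next, with overlap between neighbours. SLC7A11 (3.34), GCLM (2.55), HMOX1 (1.27) and SRXN1 (0.121) followed without overlap between neighbours. At 6 h and 12 h TXNRD1 was first (75.0 and 48.3 CPM per kilobase), and at 24 h NQO1 was (97.5), ahead of KEAP1 (46.2) and NFE2L2 (40.3), which overlapped. SLC7A11 went from place 6 in normoxia to place 8 at each hypoxic time. These places depend on the length used. Per kilobase of all annotated exons KEAP1 was first in normoxia, TXNRD1 at 6 h and NQO1 at 12 h and 24 h, and NFE2L2 was in place 5 at every time. GCLM and HMOX1 also changed places between the lengths at 6 h and 12 h.

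The 2 genes closest in course to each member were all outside the list of pathway genes. That list held 76 tested genes, so this outcome was likely in advance among 11895 genes and says nothing about the pathway. Likeness was measured as the root-mean-square difference of centred log2 CPM over the 11 libraries, against 11895 protein-coding genes (11896 for SRXN1). NQO1 was nearest to CISD1 (0.106) and YARS2 (0.110), TXNRD1 to CDK6 (0.135) and CHST15 (0.155), and SLC7A11 to SYNE3 (0.230) and SLC25A27 (0.314). NFE2L2 was nearest to COL4A6 (0.093) and UBXN2A (0.098), and KEAP1 to CINP (0.075) and NUDT1 (0.078). GCLM was nearest to C5orf24 (0.138) and FAM241A (0.150), HMOX1 to LAPTM4B (0.156) and WDR77 (0.163), and SRXN1 to PCDHB11 (0.582) and NPTXR (0.585). The closest pair of members was NFE2L2 and GCLC (0.221), and NFE2L2 ranked 216 among the genes nearest to GCLC.

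Of the 9 regulators of NRF2 tested, 7 were called at 6 h (77.8%), 6 at 12 h (66.7%) and 4 at 24 h (44.4%). Of these, 6 were higher and 1 lower at 6 h, 4 and 2 at 12 h, and 3 and 1 at 24 h. Over all genes 52.8%, 51.2% and 61.2% were called, with 25.1%, 24.2% and 29.9% higher and 27.7%, 27.1% and 31.3% lower. BACH1, the repressor at AREs, held 38.5, 36.4 and 38.5 CPM in normoxia and 175, 151.5 and 116 CPM at 6 h. It held between 73.9 and 105 CPM at 12 h and 54.5 and 70.5 CPM at 24 h, so all 8 hypoxic libraries exceeded normoxia. Its log2 fold changes were 1.96 (SE 0.19, edgeR adjusted p = 5.53e-06), 1.29 (SE 0.18, edgeR adjusted p = 0.000126) and 0.73 (SE 0.20, edgeR adjusted p = 0.00702), though the 24 h value turned to -0.23 with library size alone and was not called without 24 h replicate 2 (0.51). The small MAF genes, which encode the partners of NRF2 and BACH1, were all 3 higher at 6 h: MAFK by 1.59 (edgeR adjusted p = 4.69e-05), MAFF by 1.45 (edgeR adjusted p = 0.000372) and MAFG by 0.68 (edgeR adjusted p = 0.00135), the last not called with library size alone (0.36). At 24 h only MAFF was called among them (0.81, edgeR adjusted p = 0.0207, with -0.07 under library size alone and not called without 0 h replicate 1 or 2 or 24 h replicate 1, at 0.57 to 0.79), while MAFK stood at -0.04 and MAFG at -0.36. Without 24 h replicate 1 MAFG was called lower at 24 h (-0.65), and with library size alone MAFK (-0.93) and MAFG (-1.23) both were.

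Of the genes for the ubiquitin ligases that act on NRF2, CUL3 was higher at 6 h (0.82, edgeR adjusted p = 0.00316), and BTRC at 6 h (0.78, edgeR adjusted p = 0.000680) and 12 h (0.71, edgeR adjusted p = 0.00156). With library size alone none of these was called (0.50 for CUL3, 0.46 and 0.24 for BTRC). At 24 h BTRC held 35.3 and 25.0 CPM, against 33.2 to 35.5 CPM in normoxia, and was not called in the main fit. It was called lower there with library size alone (-1.06), and its value was -0.52 without 24 h replicate 1. CUL3 was also called higher at 12 h without 24 h replicate 1 (0.39) or 2 (0.42), and at 24 h without 24 h replicate 2 (0.78). In the main fit RBX1 was called at 24 h alone among the comparisons with 0 h (1.72, edgeR adjusted p = 0.000502). It was called higher under 5 of 20 alternatives at 6 h, among them the 2 groups alone (0.57) and no filter (0.54). At 12 h RBX1 was called higher under 4 of 20, among them the 2 groups alone (0.45). Its 24 h libraries stood apart, at 17.5 and 53.9 CPM, against 10.6 to 11.1 CPM in normoxia. SQSTM1, which encodes the autophagy receptor that sequesters KEAP1, was lower at 6 h (-1.07, edgeR adjusted p = 0.000718) and 12 h (-0.92, edgeR adjusted p = 0.00230). At 24 h it was just short of the threshold (-0.53, edgeR adjusted p = 0.0550). It was called lower there with DESeq2 (-0.51), no filter (-0.64), at least 10 counts in every library (-0.68), the 2 groups alone (-0.52) and library size alone (-1.46). The same held without 6 h replicate 1 or 3 (both -0.53) or 12 h replicate 2 (-0.58). The relatives of NRF2 diverged, with NFE2L3 higher at all 3 times (1.67, 1.20 and 1.83) and NFE2L1 lower at 12 h and 24 h (-0.40 and -1.42), of which the 12 h call was lost without any 1 normoxic library or 12 h replicate 1 or 3 (-0.43 to -0.32). ATF4, a known activator of SLC7A11 in amino acid stress, was not called at 6 h (-0.34, edgeR adjusted p = 0.0628) or 12 h (0.08). It was higher at 24 h (0.79, edgeR adjusted p = 0.00100, with -0.08 under library size alone). At 6 h ATF4 was called lower under 7 of 20 alternatives, among them DESeq2 (-0.34), the 2 groups alone (-0.36) and library size alone (-0.66). Under the other 13 it was not called at 6 h. HIF1A was not called at any time in the main fit (0.25, 0.44 and 0.44), with an edgeR adjusted p = 0.0518 at 12 h. At 12 h it was called higher under 8 of 20 alternatives, among them limma-voom (0.44) and DESeq2 (0.42). It was not called under the other 12, with the sign turned in 1 of them (-0.03). Among fits that kept both 24 h libraries, HIF1A was called higher at 24 h with DESeq2 (0.45) and without 6 h replicate 3 (0.44). Without 24 h replicate 2, which leaves 1 library at 24 h, its values were 0.43 at 12 h and 0.68 at 24 h.

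**Figure D3:**
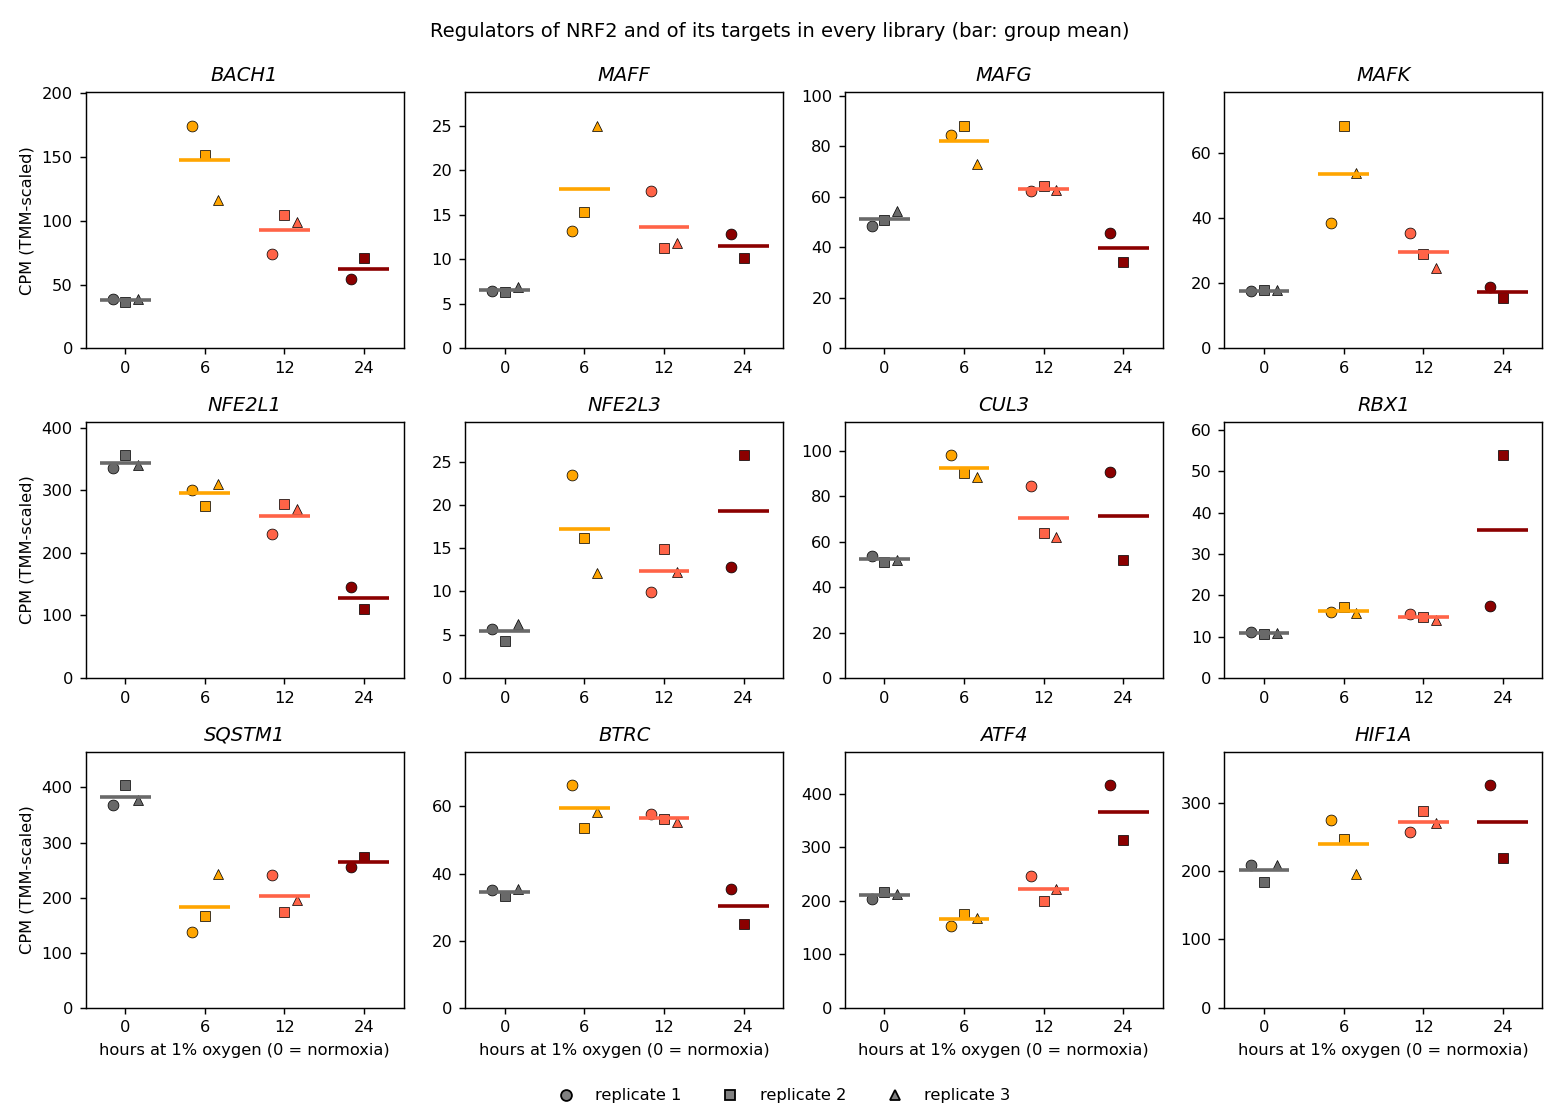
CPM of 12 regulators (y axis, from 0, with its own scale in each panel) in each library by hours at 1% oxygen (x axis). Points are libraries and bars are group means. BACH1 rose from a mean of 37.8 CPM to 147 CPM at 6 h and then stood at 92.5 and 62.5 CPM, and SQSTM1 was below its normoxic libraries in every hypoxic library.

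Beyond the 9 members, 79 of 80 listed pathway genes were matched to the table and 76 were tested. At 6 h 44 were called, 33 higher and 11 lower, and at 12 h 46, 38 higher and 8 lower. At 24 h 51 were called, 47 higher and 4 lower. These were 57.9%, 60.5% and 67.1% of the 76, beside 52.8%, 51.2% and 61.2% of all genes. Of all genes 25.1%, 24.2% and 29.9% were higher and 27.7%, 27.1% and 31.3% lower at 6 h, 12 h and 24 h, and the counts of each group that follow stand beside these shares. The median log2 fold changes of the 76 were 0.466, 0.509 and 1.009. At all 3 times 24 of the 76 were higher and 3 were lower, beside 14.8% and 17.9% of all genes. Scaled by library size alone, where the median of all genes stood at -0.320, -0.499 and -0.971 for the same times, the numbers higher were 18 of 34 called, 17 of 36 and 27 of 47.

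In the thioredoxin and peroxiredoxin group most called genes were higher. Of 10 genes, 5 were higher and 2 lower at 6 h, 7 higher and 1 lower at 12 h, and 7 higher and 0 lower at 24 h, so that 70.0%, 80.0% and 70.0% were called. PRDX1, an abundant peroxide-reducing peroxiredoxin, went from 77.6 ± 5.76 CPM (SD, n = 3) to 329 ± 22.7 at 6 h (SD, n = 3), with log2 fold changes of 2.08, 1.82 and 2.20. TXN, the substrate of thioredoxin reductase, was higher by 1.20, 1.09 and 2.05, PRDX4 by 0.93, 1.13 and 2.86, and PRDX6 by 1.07, 1.29 and 1.98. TXNRD3 was lower at 6 h and 12 h (-1.02 and -0.95), and the mitochondrial TXNRD2 was lower at 6 h (-0.55). TXNRD3 and TXNRD2 were named after their values were seen, and were not followed through the alternatives.

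Glutathione genes were called in both directions. Of 13 tested, 3 were higher and 4 lower at 6 h, 3 higher and 2 lower at 12 h, and 6 higher and 1 lower at 24 h. The shares called were 53.8%, 38.5% and 53.8%, the last 2 below those of all genes. CHAC1, which encodes a glutathione-degrading enzyme, was lower at all 3 times (-3.14, -2.77 and -3.24), as was SLC7A11. SLC3A2, the heavy-chain partner of SLC7A11, was lower at 6 h (-0.55, edgeR adjusted p = 0.00838) and 12 h (-0.41, edgeR adjusted p = 0.0390) and not called at 24 h (0.29). Glutathione synthetase GSS (-0.55) and glutathione reductase GSR (-0.74) were lower at 6 h, GLRX was higher at all 3 times (0.94, 0.70 and 1.81), and GPX1 and GPX4 were higher by 2.08 and 2.13 at 24 h. The GLRX call at 12 h was lost without any 1 normoxic library or 12 h replicate 1 or 2 (0.63 to 0.74). It was also lost with library size alone (0.23). SLC3A2, GSS, GSR, GPX1 and GPX4 were named after their values were seen, and were not followed through the alternatives.

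In the conjugation, reduction and efflux group, 11 of 25 genes were higher and 2 lower at 6 h, 14 higher and 1 lower at 12 h, and 16 higher and 1 lower at 24 h. The shares called, 52.0%, 60.0% and 68.0%, were near those of all genes. The aldo-keto reductase AKR1C3 went from 4.31 ± 0.591 CPM (SD, n = 3) in normoxia to 38.8 ± 14.7 at 24 h (SD, n = 2), with log2 fold changes of 1.09, 1.86 and 3.17. AKR1C2 (0.98, 1.44 and 2.57) followed, but the AKR1C genes are near-identical copies and reads may be shared between them. With library size alone AKR1C3 (0.77) and AKR1C2 (0.66) were not called at 6 h. AKR1B1 was higher by 1.48, 1.78 and 2.41 and the glutathione transferase GSTM3 by 1.49, 1.37 and 2.46. These 4 genes, like NQO1, had their largest value at 24 h.

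For NADPH supply, on which NQO1, TXNRD1 and glutathione reductase depend, 3 of 7 genes were higher at 6 h, 4 at 12 h and 6 at 24 h, and none was lower. The share called was 42.9% at 6 h, below that of all genes, 57.1% at 12 h and 85.7% at 24 h. The pentose phosphate genes TKT (0.62, 1.12 and 1.94) and PGD (0.72, 1.05 and 1.37) were higher at each time. With library size alone neither was called at 6 h (0.30 and 0.40). In haem breakdown and ferritin, 57.1%, 71.4% and 85.7% of 7 genes were called. HMOX2, the constitutive counterpart of HMOX1, was higher at all 3 times. It went from 36.1 CPM in normoxia to 155, 166 and 306 CPM, with log2 fold changes of 2.10, 2.20 and 3.08. The ferritin light chain FTL was higher (0.70, 1.00 and 2.07) and the haem transporter SLC48A1 was lower (-1.40, -1.04 and -1.65) at all 3 times. The FTL call at 6 h was lost without any 1 normoxic library, 6 h replicate 1 or 2 or 12 h replicate 2 (0.65 to 0.70). It was also lost with library size alone (0.37) and with at least 10 counts in every library (0.61). SOD1 (0.92, 0.90 and 1.74) and CAT (0.83, 1.02 and 1.32) were both higher at all 3 times. With library size alone the CAT call was lost at each time (0.51, 0.55 and 0.45).

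**Figure D4:**
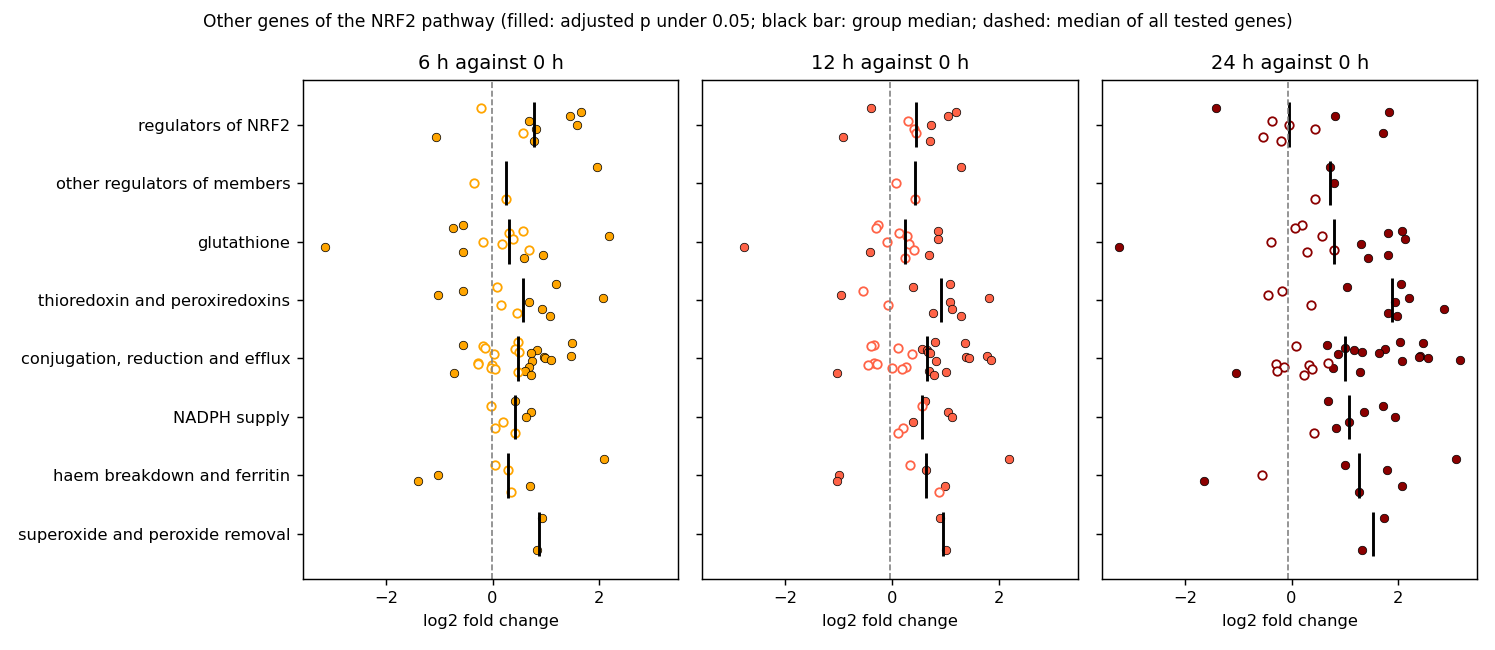
Log2 fold changes (x axis) of the 76 tested pathway genes by group (rows) at 6 h, 12 h and 24 h against normoxia, filled where the edgeR adjusted p was under 0.05. Black bars are group medians and the dashed line is the median of all tested genes. Higher calls went from 33 at 6 h to 47 at 24 h, and the glutathione group spread to both sides of 0.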

How the data were processed

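Total RNA from 11 RWPE-1 libraries was sequenced as single-end reads from a stranded kit. Per the labels and the study's methods, the authors trimmed reads with Trimmomatic, aligned them to GRCh38 with STAR, and used featureCounts to count reads for each Ensembl gene. The deposited values are raw counts, and the strand setting of the counting is not given in the sources used here. The table was neither filtered nor normalized.

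Genes were matched to symbols, positions and lengths with GENCODE 44 (SOD2 was not matched). Counts were filtered with filterByExpr (minimum count 10), scaled by TMM and fitted in edgeR 4.0.16 (R 4.3.3) with 1 mean per time over all 11 libraries, and tested with the quasi-likelihood F test and Benjamini-Hochberg adjustment over 19981 genes. Library totals ran from 27496009 to 49488345 counts and replicates varied with a biological coefficient of variation of 19.6%. The test was also run on simulated counts, with the outcome not reported here. The study's own test, limma-voom, was run as an alternative (limma 3.58.1), as were DESeq2 1.42.0, other scalings and filters, and leaving out each library.

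The members and gene lists were chosen with earlier results of these data known. Named genes were the 9 members, all listed regulators, up to 4 genes in each other group that were called in 1 direction at all 3 times and had the largest mean change, and the 2 genes nearest to each member; some of these are not reported here. TXNRD2, TXNRD3, SLC3A2, GSS, GSR, GPX1 and GPX4 were named outside this rule, after their values were seen. A further 24 h replicate was not used here.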

Additional observations from a re-analysis of the deposited data

Results flagged for a closer look

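Consecutive times of hypoxia differed for 4 member effects by the test of the difference itself, edgeR's quasi-likelihood test between the times. For TXNRD1 the log2 fold change was -0.64 from 6 h to 12 h and -0.79 from 12 h to 24 h, with lower values in every library of the later group. For NQO1 it was 1.28 from 12 h to 24 h and for KEAP1 0.66, with both 24 h libraries above all 3 libraries at 12 h. The part of the spread between the 2 libraries at 24 h in these differences was not tested beyond leaving each out. Without 24 h replicate 2 NQO1 stood at 0.84 and KEAP1 at 0.28.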

How the results depend on the processing

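The sign of 4 members at 24 h against 0 h depended on the scaling. With library size alone the log2 values were -0.84 for NFE2L2, -0.20 for KEAP1, -0.64 for GCLC and -0.42 for TXNRD1, and among regulators and other named genes -0.07 for MAFF, -0.23 for BACH1 and -0.08 for ATF4. Under that scaling 16.4% of all called genes at 24 h were higher, against 48.8% with TMM, 20.0% against 47.2% at 12 h and 27.6% against 47.6% at 6 h. With sample quality weights in limma-voom 3 members were called at 24 h against 0 h and 5 at 12 h against 6 h, and 17 pathway genes at 12 h against 6 h and 13 at 24 h against 12 h. In fits of the 2 groups alone 0 members and 0 pathway genes were called at 24 h against 12 h, where the same edgeR test gave 5671 genes at an unadjusted p under 0.05, and 9 pathway genes were called at 12 h against 6 h. Over all 11 libraries limma-voom called 3 members at 24 h against 12 h. Pathway genes called at 12 h against 6 h were 8 with DESeq2 and 5 without a filter, and with library size alone 21 at 24 h against 12 h. Leaving out single libraries gave 4 to 6 members at 6 h against 0 h, 3 to 5 at 12 h (3 without 0 h replicate 1 or 3 or 12 h replicate 3), 5 to 6 at 24 h, 0 to 4 at 12 h against 6 h and 2 to 5 at 24 h against 12 h (5 without 24 h replicate 1). The same gave 39 to 54, 36 to 61, 50 to 56, 1 to 19 and 23 to 56 pathway genes in these comparisons, with 23 without 24 h replicate 2. Replicate numbers did not pair the libraries: same-numbered libraries correlated at -0.16 to 0.21 in their deviations from the group means, with 2 of 15 pairs over 0.1. With a replicate block 6, 5, 5, 1 and 3 members were called, and 42, 42, 51, 1 and 43 pathway genes. Of 2689 recomputed log2 values 8 reversed, the 7 above among them, all with library size alone. SRXN1 and HMOX1 had low counts, with at most 21 and 191 per library. Whether the SRXN1 counts were low through read assignment or low expression was not tested.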
